A study of Mus musculus with 8 samples.

Results

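The extracellular matrix enzymes described here are 9 genes of brown adipose tissue (BAT), 2 matrix metalloproteinases (Mmp2 and Mmp14), the 4 tissue inhibitors of metalloproteinases (Timp1 to Timp4) and 3 lysyl oxidases (Lox, Loxl1 and Loxl2). They were given as a list of gene symbols, with no threshold on a measured value, and all 9 were found among the 31053 genes of the count table. The list was chosen with earlier results of these data known. BAT, the thermogenic fat of rodents, was taken at 8 weeks of age from wild-type (WT, C57BL6/J) and db/db mice and profiled by bulk RNA-seq in 4 libraries of each, to compare the tissue in obesity with that of lean animals. The db/db mice (B6.BKS(D)-Leprdb/J) carry a mutated leptin receptor in every cell and overeat. All mice were males on a normal diet and were fasted before the tissue was taken. The db/db mice came from Jackson Laboratories, whereas the sources name both Charles River and Jackson as supplier of the WT mice, so that a difference in supplier between the genotypes was not settled.

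Fat cells lie in a mesh of collagens and other matrix proteins that is built, cross-linked and cut as a depot grows. Matrix metalloproteinases are zinc enzymes that cleave matrix proteins. MMP14 sits in the cell membrane and, with TIMP2 as a bridge, activates the secreted gelatinase MMP2. The TIMPs block these enzymes, and TIMP3 differs from the others in that it stays bound to the matrix. Lysyl oxidases are copper enzymes that oxidise lysines in collagen and elastin, the step from which covalent cross-links form. Plasmin, made from plasminogen, is a further matrix-cleaving protease.

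Total counts ran from 2374079 to 3240074 per library, so that a detection floor of 3 counts corresponded to 0.902 to 1.33 CPM. CPM is the count scaled to the size of its library with the TMM factor. A gene counted as called where the edgeR adjusted p was under 0.05. Lepr, the mutated gene, had 0 counts in the 8 libraries, which left the genotype unchecked on its own transcript. The labels give the cell type as the stromal vascular fraction, the part of fat without adipocytes, whereas brown adipocyte markers summed to 8898 to 10561 CPM in WT and 3726 to 6773 CPM in db/db libraries. The material is therefore called BAT here, as the tissue label has it. Fewer cells of a type and less RNA per cell cannot be told apart in bulk tissue. The library labelled db/db replicate 1 stood apart from the other db/db libraries, with 12393 CPM of summed skeletal muscle markers against 2484 to 5520, and the change of each listed gene is also given without it.

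The matrix enzymes and their inhibitors were mostly higher in db/db BAT, and 0 of them were called lower by edgeR, DESeq2 or limma-voom, or were lower at an unadjusted p under 0.05 in edgeR. Of the 9 genes, 8 had enough counts to be tested and 6 of these rose in db/db, namely Mmp2, Timp2, Timp4 and the 3 lysyl oxidases, while 15.8% of the 9264 genes tested across the transcriptome rose and 11.9% fell. Mmp14 and Timp3 were tested and did not pass after adjustment, with unadjusted edgeR p-values of 0.048 and 0.0338. Timp1 did not reach the count filter of the main test in 4 libraries. Among the 8 genes in the main test, the lysyl oxidases had the largest fold changes, from 4.14-fold for Lox to 7.75-fold for Loxl1, whereas Mmp2, Timp2 and Timp4 rose between 2.07-fold and 2.63-fold. The median log2 fold change of the 8 tested genes was 1.35, against 0.01 for all genes tested. The libraries of the genotypes did not overlap, with db/db above WT, for the 6 genes that rose, as for 15.3% of all genes tested. The 6 calls remained without db/db replicate 1. With a skeletal muscle score as a covariate (the mean z-score of 15 muscle markers in each library), 3 of the 6 calls were lost. In that fit 566 of the 9264 genes tested were called in either direction, against 2568 without the covariate. The score itself did not overlap between the genotypes.

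**Figure D1:**
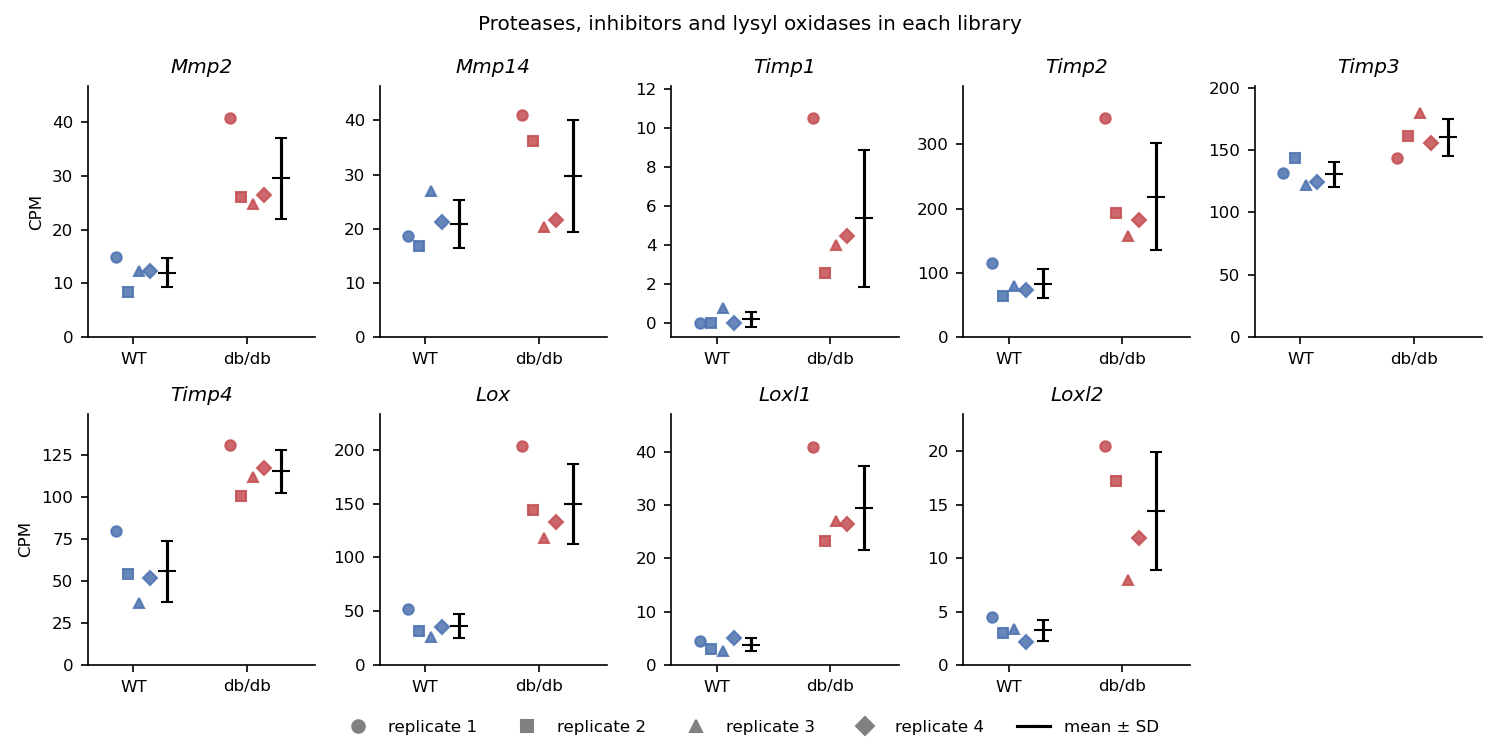
Level of each gene in each library, in CPM on a linear axis, with 4 WT libraries in blue and 4 db/db libraries in red, a symbol for each replicate number, and the mean ± SD as a black bar. The genotypes overlap for Mmp14 and Timp3 only, and db/db replicate 1 is the highest db/db library in 8 of the 9 genes.

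Mmp2 (ENSMUSG00000031740, chr8:92827291-92853420, GRCm38/mm10, plus strand) encodes gelatinase A, which digests denatured collagen and basement membrane collagen. Its level was 14.97, 8.44, 12.4 and 12.3 CPM in WT replicates 1 to 4 and 40.9, 26.1, 24.8 and 26.4 CPM in the db/db replicates. The lowest db/db library lay above the highest WT library, and 3 db/db libraries sat close together with replicate 1 well above them. Mean levels were 12.03 ± 2.69 CPM in WT and 29.6 ± 7.60 CPM in db/db (n = 4 per genotype, SD). The log2 fold change was 1.30 ± 0.24 (SE) with an edgeR adjusted p of 0.00048. Without db/db replicate 1 it was 1.09 (adjusted p = 0.00189 by edgeR). With the muscle score as a covariate it was 0.93 and no longer passed (adjusted p = 0.203 by edgeR).

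Mmp14 (ENSMUSG00000000957, chr14:54431612-54445364, plus strand), the membrane-bound activator of MMP2, was not called. Its level was 18.6, 16.9, 27.1 and 21.2 CPM in WT and 40.9, 36.3, 20.4 and 21.6 CPM in db/db. Replicates 1 and 2 of db/db lay above every WT library, while replicates 3 and 4 lay within the WT range. Its estimate was 0.52 on the log2 scale with a 95% interval from 0.01 to 1.03, and the edgeR adjusted p of 0.124 did not pass. Without db/db replicate 1 the estimate was 0.32 (adjusted p = 0.377 by edgeR). The per-library log2 ratio of Mmp2 to Mmp14 was -0.80 ± 0.35 on average in WT, and 0.02 ± 0.36 in db/db (n = 4 per genotype, SD). That difference of 0.82 did not pass the exact two-sided permutation test (p = 0.0571).

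Among the 4 inhibitors, Timp2 and Timp4 passed the test, Timp3 did not, and Timp1 went from almost no counts in WT to a low level in db/db. Timp2 (ENSMUSG00000017466, chr11:118301069-118355740, minus strand), the inhibitor that also takes part in MMP2 activation, measured 115, 63.7, 79.7 and 73.4 CPM in WT and 341, 192, 157 and 182 CPM in db/db. Every db/db library exceeded every WT library, and replicate 1 was the highest of its genotype on both sides. Its log2 fold change was 1.40 ± 0.22 (SE; adjusted p = 0.000162), and 1.09 by edgeR without db/db replicate 1 (adjusted p = 0.000123 by edgeR). The muscle covariate left 1.01, which did not pass (adjusted p = 0.116 by edgeR). Cep295nl lies within the Timp2 locus and shares no annotated exon base with it.

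Timp4 (ENSMUSG00000030317, chr6:115241892-115252205, minus strand), a TIMP with a narrower range of tissues than the others, measured 80.1, 54.4, 36.8 and 51.8 CPM in WT and 131, 101, 112 and 117 CPM in db/db. The db/db libraries were tightly grouped, with an SD of 12.7 CPM around a mean of 115 CPM, and none of them reached down to the highest WT library. The log2 fold change of 1.05 ± 0.19 (SE) passed with an edgeR adjusted p of 0.000425. It was 0.97 without db/db replicate 1 (adjusted p = 0.00105) and 1.09 by edgeR with the muscle covariate (adjusted p = 0.0462 by edgeR). The Timp4 locus overlaps Syn2, which encodes a synaptic vesicle protein, and 90 of its 5894 annotated exon bases are shared. Syn2 was also higher in db/db, with 10.1 to 16.1 CPM in WT and 19.4 to 34.2 CPM in db/db (log2 change 1.16 ± 0.23, SE; adjusted p = 0.00118 by edgeR). The sources do not say if strand was used in counting, and how reads of the shared bases were assigned was not tested.

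Timp3 (ENSMUSG00000020044, chr10:86300372-86349506, plus strand), the matrix-bound inhibitor, showed the smallest estimate of the 8 tested genes. Its level was 132, 144, 122 and 124 CPM in WT and 143, 161, 180 and 155 CPM in db/db. Replicate 1 of db/db, the highest library for the other listed genes, was the lowest db/db library here and fell just under WT replicate 2. Its estimate was 0.29 on the log2 scale with a 95% interval from 0.03 to 0.56 (adjusted p = 0.0962 by edgeR), and 0.34 without db/db replicate 1 (adjusted p = 0.0711 by edgeR). It passed under a stricter filter of 10 counts in every library (adjusted p = 0.0489 by edgeR), where fewer genes were tested. Timp3 lies within Syn3 and shares 1733 of its 8144 exon bases with it.

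Timp1 (ENSMUSG00000001131, chrX:20870166-20874735, plus strand), the inhibitor best known as induced by growth factors and cytokines, had 0, 0, 2 and 0 counts in the WT libraries and 35, 8, 9 and 12 counts in the db/db libraries. On the CPM scale these were 0, 0, 0.752 and 0 against 10.5, 2.55, 3.99 and 4.46. The genotypes did not overlap, and the WT value lay under the detectable level in every library. Pooled over libraries, 64 counts in db/db against 2 in WT gave a ratio of 27.6, with a 95% exact interval of 7.35 to 233.2 that covers counting error only. The db/db replicate 1 library held 35 of the 64 counts, and without it 29 counts against 2 gave a ratio of 17.7 (95% exact interval 4.47 to 152.9). Without WT replicate 3, the source of both WT counts, the db/db level was at least 13.5-fold higher, against a floor of 3 counts over the WT group. The exact permutation test on log2 CPM gave p = 0.0286, the smallest that 4 against 4 libraries allow, and p = 0.0571 without db/db replicate 1. DESeq2, which tested Timp1, called it higher with a DESeq2 adjusted p of 0.000883, and edgeR did so when every gene with a count was kept (adjusted p = 1.9e-06 by edgeR). Timp1 lies within the gene Syn1 on the opposite strand and shares no exon base with it.

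The 100 bases before the start are shown for Timp1 and Timp4, the TIMPs whose start in RefSeq (GRCm38.p6) is also the start in the GENCODE annotation, with the GC box GGGCGG (on either strand) in capitals.
Timp1, chrX:20870066-20870165, plus strand: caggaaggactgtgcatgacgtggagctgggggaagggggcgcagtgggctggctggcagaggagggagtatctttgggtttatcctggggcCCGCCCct
Timp4, chr6:115252206-115252305, minus strand: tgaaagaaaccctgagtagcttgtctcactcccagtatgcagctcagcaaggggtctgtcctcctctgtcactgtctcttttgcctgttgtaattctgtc
The stretch before Timp1 holds 65.0% G or C and a GC box beginning 8 bases before the start, and that before Timp4 holds 49% and no GC box. Windows of 250 bases before to 50 after the start were examined for 5 of the 9 genes (Mmp14 and the 4 TIMPs). The other listed genes were not examined, which says nothing about whether RefSeq holds an entry for them. A GC box occurred in the windows of Mmp14, Timp1, Timp2 and Timp3 and in 35.7% of all 32851 windows. The AP-1 motif TGANTCA (7.81% of all windows) and the TATA box TATAAA (13.6%), searched on both strands, matched none of the 5 windows. A match or its absence describes these letters only.

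Lox, Loxl1 and Loxl2 rose in db/db, whereas Loxl3 and Loxl4, the other genes of the family, had too few counts to be tested (1 to 5 and 0 counts per WT library, 4 to 15 and 0 to 6 per db/db library). Lox (ENSMUSG00000024529, chr18:52516067-52529867, minus strand), the founding enzyme of the family, measured 52.2, 31.2, 25.9 and 35.7 CPM in WT and 203, 144, 118 and 133 CPM in db/db. The lowest db/db library lay well above the highest WT library. Mean levels were 36.3 ± 11.4 CPM in WT and 150 ± 37.3 CPM in db/db (n = 4 per genotype, SD), and the log2 fold change was 2.05 ± 0.21 (SE; adjusted p = 1.59e-06 by edgeR). The call remained without db/db replicate 1 (1.86, adjusted p = 8e-07 by edgeR) and with the muscle covariate (1.81, adjusted p = 0.00168 by edgeR). Of its 4778 exon bases, 30 are shared with another annotated gene.

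Loxl1 (ENSMUSG00000032334, chr9:58287738-58313186, minus strand), which is needed for elastic fibre upkeep, showed the largest log2 fold change of the 8 tested genes. It measured 4.45, 2.95, 2.63 and 5.09 CPM in WT, from 7 to 12 counts per library, and 40.9, 23.2, 27.0 and 26.4 CPM in db/db, from 61 to 136 counts. The db/db libraries lay far above the WT range. The log2 fold change was 2.95 ± 0.29 (SE; adjusted p = 9.42e-07 by edgeR), or 7.75-fold. Without db/db replicate 1 it was 2.74 (adjusted p = 1.06e-06 by edgeR), and with the muscle covariate 2.31 (adjusted p = 0.00153 by edgeR). No other annotated gene overlaps Loxl1.

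Loxl2 (ENSMUSG00000034205, chr14:69609068-69695834, plus strand), a cross-linking enzyme of collagen IV in basement membranes, measured 4.45, 2.95, 3.38 and 2.12 CPM in WT and 20.5, 17.2, 7.98 and 11.9 CPM in db/db. The genotypes did not overlap, although db/db replicates 3 and 4 lay nearer to WT than replicates 1 and 2. Loxl2 changed by 2.15 ± 0.36 on the log2 scale (SE; adjusted p = 0.000246), and 1.93 by edgeR without db/db replicate 1 (adjusted p = 0.00116 by edgeR). With the muscle covariate it was also 1.93 and did not pass (adjusted p = 0.0671 by edgeR). WT held 5 to 11 counts per library, which limits the precision of the estimate. Of its 5405 exon bases, 301 are shared with Gm27177.

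**Figure D2:**
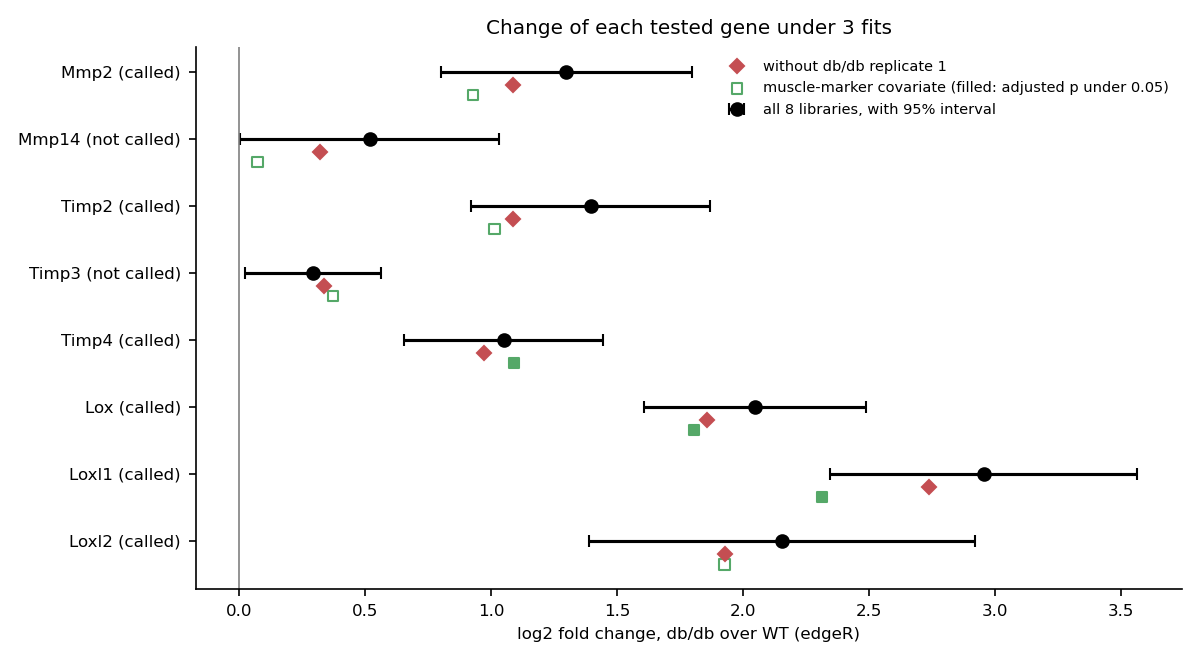
Log2 fold change of db/db over WT for the 8 tested genes, with the 95% interval from all 8 libraries in black, the estimate without db/db replicate 1 as red diamonds, and the estimate with the muscle score as a covariate as green squares, filled where the adjusted p was under 0.05. All estimates lie above 0, from 0.07 for Mmp14 with the covariate to 2.95 for Loxl1, and the squares of Mmp2, Mmp14, Timp2, Timp3 and Loxl2 are open.

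To find out whether genes of a family changed by different amounts, the log2 ratio of their counts was taken within each library, which does not depend on scaling, and 10 pairs were compared between the genotypes. In 5 of the 10 pairs the ratios of the genotypes did not overlap, and each of these gave an exact permutation p of 0.0286, the smallest the design allows. The share among ratios of other gene pairs was not computed. The gap was narrow for Timp1 to Timp4, with -5.30 as the highest WT and -5.22 as the lowest db/db ratio. For Timp1 to Timp2 these were -6.41 and -6.15. None of the 10 passed after Benjamini-Hochberg adjustment over the pairs, where the smallest adjusted value of the exact tests was 0.0571. With 0.0286 as the smallest exact p, an adjusted call would need more of the 10 pairs to reach it together. Only the difference between the genotypes is read here, since the ratio itself mixes level and transcript length.

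Within the TIMPs, the Timp3 to Timp4 ratio was 0.71, 1.40, 1.72 and 1.26 in WT and 0.13, 0.67, 0.68 and 0.41 in db/db on the log2 scale. All db/db ratios were below all WT ratios, and the mean difference was -0.80 (exact permutation p = 0.0286), or -0.69 without db/db replicate 1. The Timp2 to Timp3 ratio was 1.07 higher in db/db, but db/db replicate 3 (-0.193) fell just under WT replicate 1 (-0.189), and the exact permutation p was 0.0571. Timp2 and Timp4 changed by amounts that were not distinguishable (difference 0.27, exact permutation p = 0.4). The ratios of Timp1 to Timp2, Timp3 and Timp4 were 2.65, 3.71 and 2.91 higher in db/db with 0.5 added to each count (exact permutation p = 0.0286 for each). These sizes rest on WT counts of 0 to 2, and with 2 added to each count they were 1.15, 2.21 and 1.42. Without WT replicate 3 the Timp1 to Timp4 difference was 3.63.

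Within the lysyl oxidases, the Lox to Loxl1 ratio was 3.49, 3.31, 3.21 and 2.76 in WT and 2.31, 2.63, 2.12 and 2.32 in db/db. The ranges did not overlap, and the ratio was lower in db/db by -0.85 on the log2 scale (exact permutation p = 0.0286), or -0.84 without db/db replicate 1. The Lox to Loxl2 ratio did not differ detectably, at 3.40 ± 0.44 in WT and 3.42 ± 0.33 in db/db (n = 4 per genotype, SD; exact permutation p = 1). The Loxl1 to Loxl2 ratio was 0.86 higher in db/db with overlapping libraries (exact permutation p = 0.114).

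**Figure D3:**
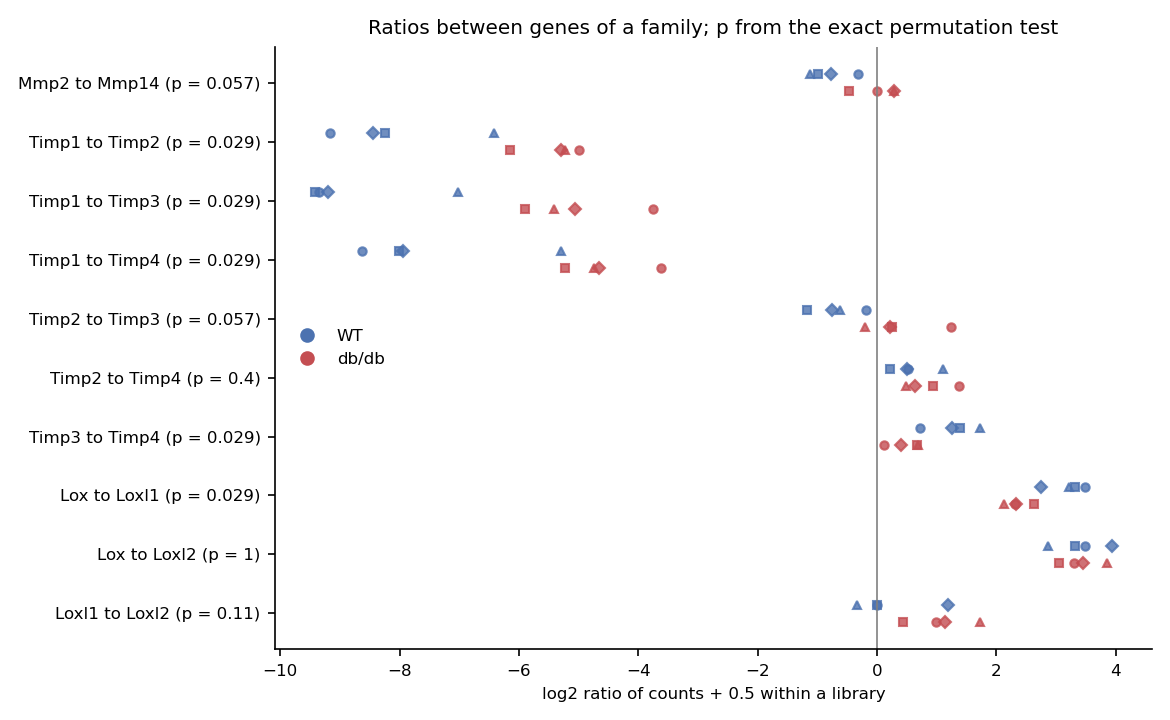
Log2 ratio of counts plus 0.5 between genes of a family in each library, with WT in blue, db/db in red, a symbol for each replicate number, and the unadjusted exact permutation p beside each pair. The genotypes separate in the 3 Timp1 pairs and in the Timp3 to Timp4 and Lox to Loxl1 pairs, while the Lox to Loxl2 ratios coincide.

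The other genes of matrix turnover were read from the same fit, in 6 lists, and the 15 of these genes named below as called also held without db/db replicate 1. The lists were chosen with earlier results of these data known. Their counts stand beside 15.8% called higher and 11.9% called lower among all 9264 genes tested. Of 16 other MMPs, 5 had enough counts to be tested, and Mmp12, Mmp23 and Mmp19 rose while Mmp11 and Mmp15 did not pass. Mmp7, Mmp10, Mmp16, Mmp24 and Mmp25 had 0 counts in every library. Mmp12, the elastase of macrophages, had 1, 1, 0 and 0 counts in WT and 59, 35, 47 and 58 counts in db/db (adjusted p = 3.29e-07 by edgeR). Its pooled ratio was 86.0, with a 95% exact counting interval of 23.5 to 714.6, and the ratio was 130.6 without WT replicate 2, which left 1 WT count. Mmp23 and Mmp19 had log2 fold changes of 1.79 ± 0.41 and 1.56 ± 0.25 (SE; adjusted p = 0.00327 and 0.00014 by edgeR), and both calls were lost with the muscle covariate, where the log2 changes were 1.38 and 1.32 (adjusted p = 0.274 and 0.0614 by edgeR).

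Of 20 ADAM and ADAMTS proteases, which shed membrane proteins or cleave proteoglycans and procollagens, 11 were tested and 4 rose, with a list median of 0.58 on the log2 scale. Adamts5, an aggrecanase, went from 7.17 to 14.7 CPM in WT to 56.2 to 143 CPM in db/db (log2 change 3.31 ± 0.28, SE; adjusted p = 1.85e-07 by edgeR). Adamts2, which trims the amino end of procollagens, had a log2 change of 1.87 ± 0.21 (SE; adjusted p = 5.11e-06 by edgeR). Adam8, a protease of myeloid cells, had 3 counts over the WT libraries and 120 over the db/db libraries, a ratio of 34.6 with a 95% exact counting interval of 11.5 to 169.9 (adjusted p = 6.72e-05 by edgeR). All 3 WT counts came from WT replicate 4, and without that library the level in db/db was at least 26.3-fold higher, against a floor of 3 counts over the WT group. With the muscle covariate the log2 changes of Adamts5, Adamts2 and Adam8 were smaller, at 2.59, 1.18 and 3.97, and still passed (adjusted p = 0.000296, 0.0261 and 0.0167 by edgeR).

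Of 11 genes of the plasminogen system and related serpins, 6 were tested and 5 rose, with a median log2 fold change of 1.87. Serpina3n, a protease inhibitor from a family of near-identical genes that makes its counts uncertain, was 3.0 ± 0.34 higher on the log2 scale (SE; adjusted p = 5.81e-06 by edgeR), and 2.26 higher with the muscle covariate (adjusted p = 0.00547 by edgeR). Serpine2, an inhibitor of thrombin and plasminogen activators, and Serpinf1, the anti-angiogenic factor PEDF, were 2.06 ± 0.17 and 1.93 ± 0.24 higher on the log2 scale (SE; adjusted p = 1.85e-07 and 1.55e-05 by edgeR). Plg, which encodes plasminogen itself, had 0 counts in every library. By contrast, 0 of the 3 tested genes among 5 other protease regulators (Bsg, Cst3 and Furin) passed the edgeR test after adjustment. Only Furin was lower at an unadjusted p under 0.05, DESeq2 and limma-voom called 0 of the 3, and their median log2 fold change was -0.11.

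Of 14 genes of collagen maturation and cross-linking, a list that also holds Loxl3 and Loxl4, 9 were tested and 6 rose, with a median of 1.18. Pcolce2 and Pcolce, which enhance the trimming of the carboxyl end of procollagens, had log2 changes of 2.90 ± 0.30 and 2.65 ± 0.22 (SE; adjusted p = 1.61e-06 and 1.85e-07 by edgeR). Serpinh1, the collagen chaperone HSP47, was 1.33 ± 0.21 higher (SE; adjusted p = 0.000167 by edgeR), a call lost with the muscle covariate (0.87, adjusted p = 0.159 by edgeR). Bmp1, the procollagen proteinase that Pcolce assists, was not called (1.35, adjusted p = 0.0575 by edgeR), and nor was Plod3 (0.44, adjusted p = 0.0722 by edgeR). P4ha1, a subunit of the collagen prolyl hydroxylase, had a negative estimate that was not called with all libraries (-0.83, adjusted p = 0.133 by edgeR) and was called lower without db/db replicate 1 (-1.31, adjusted p = 0.0231 by edgeR). All 14 matrix substrates rose, with a median of 1.82, led by Col15a1 (2.6 ± 0.40 SE, adjusted p = 9.75e-05 by edgeR), Col5a1 (2.56 ± 0.27 SE, adjusted p = 2.7e-06 by edgeR) and Fn1, which encodes fibronectin (2.56 ± 0.36 SE, adjusted p = 4.45e-05 by edgeR). With the muscle covariate 5 of the 14 substrates were called, and Col15a1 was not among them (1.79, adjusted p = 0.0764 by edgeR). That fit called 423 of all 9264 genes tested higher, against 1466 without the covariate. Col5a1 and Fn1 still passed with it, at 1.58 and 1.68 (adjusted p = 0.0106 and 0.0298 by edgeR). For Fn1, WT replicate 4 was the highest WT library, and without it the log2 change was 3.27.

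**Figure D4:**
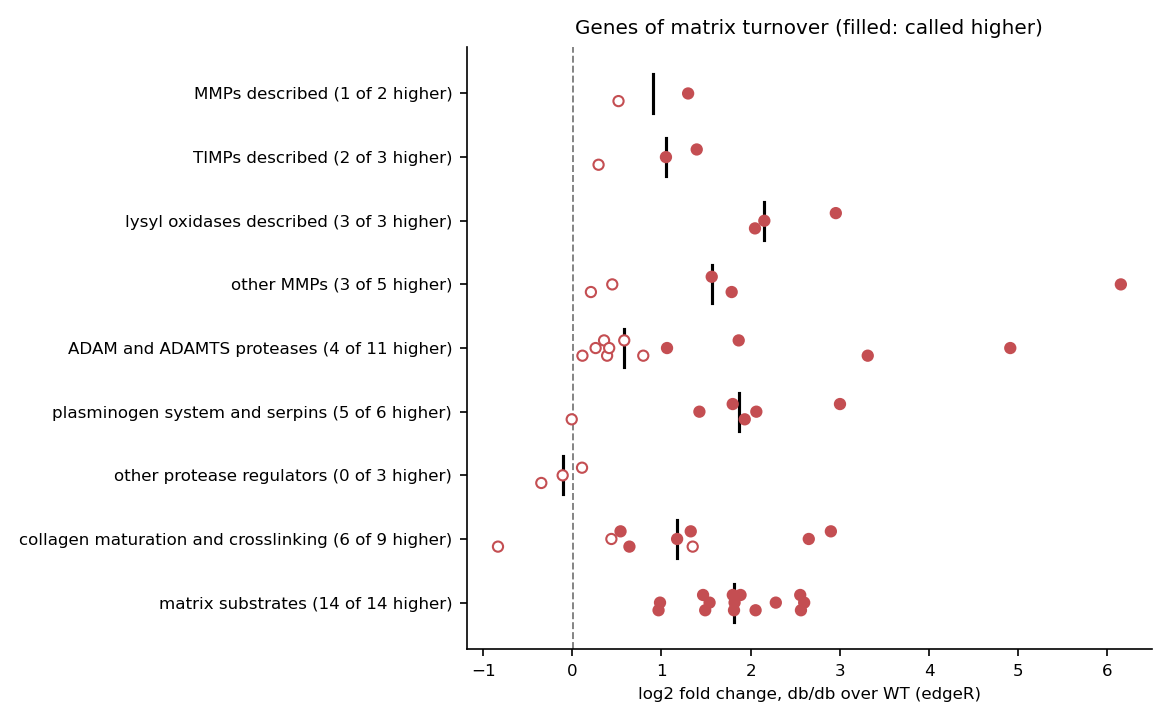
Log2 fold change of db/db over WT for each tested gene of the 3 families described and the 6 related lists, filled where called higher and open where not called, with the list median as a black bar and the median of all genes tested as a dashed line. The 14 matrix substrates and 3 lysyl oxidases are all filled, the 3 other protease regulators are all open, and no gene shown was called lower.

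Genes with the most similar pattern over the 8 libraries were found by the root mean square difference of log2 CPM, after each gene was centred on its mean. The nearest to Loxl1 were Lyve1, a receptor for hyaluronan, and Tmem176b, with differences of 0.17 and 0.25 against a median of 1.53 over all genes tested. The nearest to Loxl2 were Serpinf1 (0.18) and Col6a1 (0.21), and the nearest to Lox were Ccl9 (0.16) and Axl (0.17), against medians of 1.17 and 1.14. These distances describe 8 libraries that separate by genotype and share the same db/db replicate 1.

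Replicate 1 was the highest db/db library for 8 of the 9 genes, while it was the highest for 28.9% of all genes tested and for 54.4% of the genes called higher. Within WT, replicate 1 was the highest for 5 of the 9 genes and for 26.5% of all genes tested. Markers of other cell types moved with genotype in the same libraries, where 15.8% of all genes tested were called higher and 11.9% lower. Summed macrophage markers were 175 to 227 CPM in WT and 827 to 1468 CPM in db/db (12 of 13 tested markers called higher), and summed fibroblast markers were 1059 to 1746 CPM in WT and 2521 to 4018 CPM in db/db (9 of 10 called higher). Summed skeletal muscle markers were 479 to 1681 CPM in WT and 2484 to 12393 CPM in db/db (15 of 15 called higher), and smooth muscle and pericyte markers were 261 to 324 against 507 to 790 CPM (5 of 7 called higher). No marker of these 4 lists was at 0 in all libraries. Endothelial markers went the other way, with 436 to 497 CPM in WT and 325 to 391 CPM in db/db (3 of 9 called lower), as did brown adipocyte markers (5 of 7 called lower) and mesothelial markers, with 4.88 to 8.44 CPM in WT and 0.636 to 1.8 CPM in db/db (1 of 1 tested called lower, with Upk3b and Wt1 at 0 in all libraries). Summed white adipocyte markers were 58.2 to 126 CPM in WT and 1799 to 2829 CPM in db/db (4 of 6 tested called higher, with a median log2 fold change of 4.10 and Hoxc10 at 0 in all libraries). Summed lymphocyte markers were 22.0 CPM in db/db replicate 1 and 2.22 to 4.14 CPM in the other db/db libraries. The part of these cell types in the levels of the matrix enzymes was not tested beyond the muscle covariate.

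**Figure D5:**
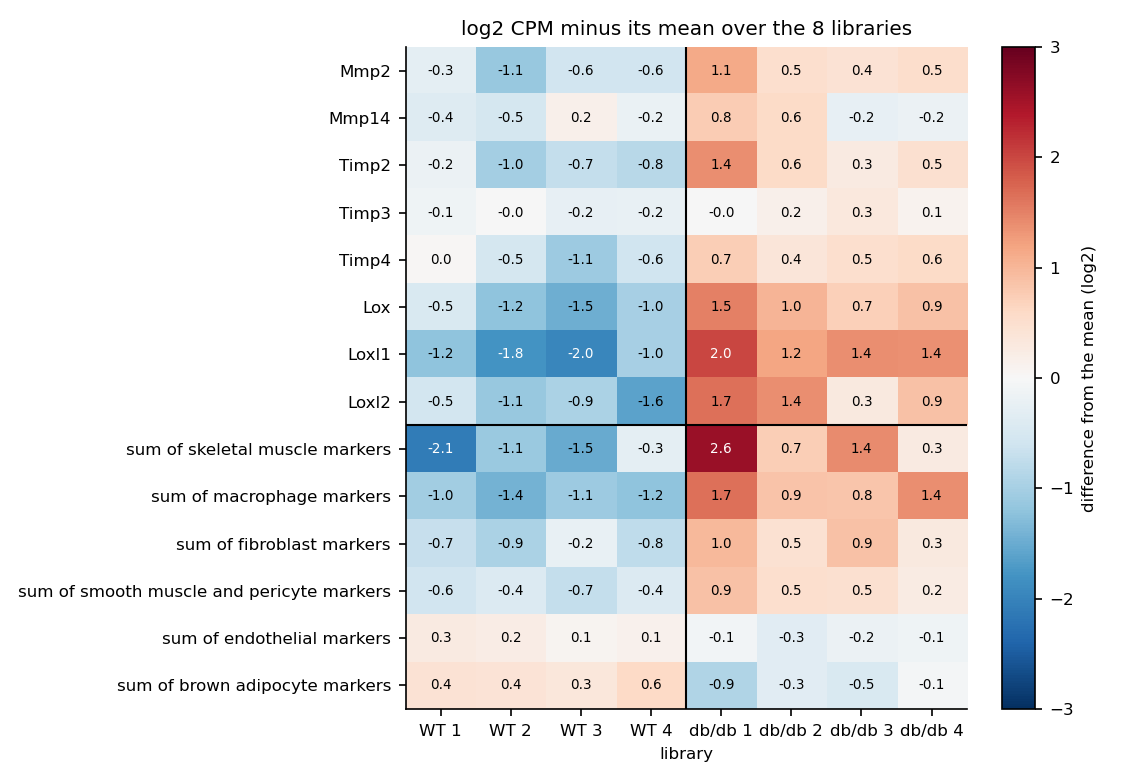
Log2 CPM of each gene, and of the summed CPM of each marker list, minus its mean over the 8 libraries, written in each cell and coloured from blue (below the mean) to red (above). Timp1 is left out because of its zeros, and db/db replicate 1 carries the highest value in the rows of Mmp2, Timp2, Lox, Loxl1 and Loxl2 and in the skeletal muscle, macrophage and fibroblast sums, while Timp3 stays near 0 in it.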

How the data were processed

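Bulk RNA-seq covered 8 BAT samples, 4 WT and 4 db/db. Per the paper's methods, the authors prepared single-end libraries through a commercial service, trimmed reads with bbduk, aligned them to mm10 with STAR and counted them per gene with HTSeq; the submitters' processing notes name Trimmomatic and HISAT2 instead. The authors deposited raw counts, used here; their normalized values and sample sheet were not used. Strand use and handling of molecular identifiers are not given in the sources used here. The exact intervals of pooled counts and the floors cover counting error only, whereas the edgeR intervals and SEs also include the spread between libraries.

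Of 31053 gene identifiers, 31011 matched GENCODE M21. Genes were filtered with filterByExpr (minimum count 10, minimum total 15), scaled by TMM and tested in edgeR 4.0.16 (R 4.3.3) with glmQLFit and glmQLFTest, over all 8 libraries and with genotype alone. P-values were adjusted over the 9264 genes tested at 0.05. The labels number the samples, and the paper gives 4 mice per genotype for this tissue and age, so each library was taken as 1 mouse. Ratios, with 0.5 added to each count, went into a two-sided exact permutation test. Genes named beside the 9 were the up to 3 called higher and up to 3 called lower with the largest change in each related list, and, for pattern likeness, the 2 nearest genes to each of the 3 called genes with the largest change. Marker lists were written by hand. The 9 genes and all lists were chosen with earlier results of these data known. The genes a sentence names as not called, not tested, at 0 counts or overlapping another gene were named after their values were seen.

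Alternatives were DESeq2 1.42.0, limma-voom (limma 3.58.1), 3 other scalings, 2 other count filters, a replicate block, the muscle score and leaving out each library. Procedures were tested on simulated data. Promoter windows came from RefSeq (GRCm38.p6). Replicate numbers occur in both genotypes, and deviations of same-numbered libraries from their genotype means correlated at -0.08 to 0.04, so that the numbers were not taken as pairs. A further gene is not reported here.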

Additional observations from a re-analysis of the deposited data

Results flagged for a closer look

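Of 86 sets of 4 libraries examined, 9 held a library whose distance from the nearest other exceeded Dixon's 95% critical value as a share of the range. About 4.3 would be expected for independent sets of normal values, which these are not, since they share libraries and genes. A set with counts in only 1 library, such as Timp1 or Adam8 in WT, exceeds that value however few the counts. Among the listed genes, Mmp2 in db/db replicate 1 stood at 40.9 CPM against 24.8 to 26.4 elsewhere in db/db. Timp1 in WT replicate 3 stood at 0.752 CPM against 0 in the other WT libraries, and its log2 ratio to Timp3 there was -7.02 against -9.42 to -9.19. Among the related genes, Adam8 stood at 1.27 CPM in WT replicate 4 against 0, Pcolce2 at 6.07 CPM in WT replicate 1 against 3.76 to 3.82, and Fn1 at 14.9 CPM in WT replicate 4 against 2.95 to 4.88. Col5a1 stood at 125.0 CPM in db/db replicate 1 against 50.6 to 62.5. Summed lymphocyte markers stood at 10.1 CPM in WT replicate 2 against 0.752 to 1.7, and at 22.0 CPM in db/db replicate 1 against 2.22 to 4.14.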

How the results depend on the processing

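The count of listed genes called higher was 5 to 7 under every alternative but the muscle covariate, and 0 were called lower in each; DESeq2 and edgeR on every gene with a count added Timp1, and 10 counts in every library removed Loxl1 and Loxl2 from the test and added Timp3. Leaving out each library gave 2236 to 2483 genes called in all, 6 of the listed genes in each case, 0 or 1 collagen maturation genes lower (P4ha1, without db/db replicate 1) and 0 or 1 other protease regulators lower (1 without db/db replicate 3). The muscle covariate gave 566 genes called in all against 2568, 3 listed genes (Lox, Loxl1 and Timp4), 1 other MMP, 3 collagen maturation genes and 5 matrix substrates. That covariate is itself higher in db/db, and the cause of the lost calls was not tested. With 10 counts in every library, 1 other MMP and 3 plasminogen and serpin genes were called, since fewer genes were tested, and with every gene with a count 1 collagen maturation gene was called lower. A replicate block of the numbers 1 to 4 gave 2557 genes called and 6 listed genes. No direction reversed for the 8 listed genes tested or the 15 related genes named as called. The calls of the 10 ratios after adjustment stayed at 0 with 2 added to each count, on log2 CPM and in the 3 against 4 comparisons, the settings run for them. The exact p cannot fall under 0.0286 with 4 against 4 or 3 against 4 libraries. An adjusted call would therefore need most of the 10 pairs to reach it together. WT levels under about 5 CPM (Timp1, Loxl1 and Loxl2) rest on 0 to 12 counts per library, which limits the precision of their folds.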
